A study of Mus musculus with 2 samples.

Results

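Collagens are extracellular proteins built from 3 chains wound around one another, and each chain is the product of its own gene. The collagen genes described here are all protein-coding mouse genes whose symbol is Col, a number, the letter a and a further number, and which were listed in the gene tables of both libraries. The rule found 44 genes among 43346 Ensembl gene rows, of which 21474 were protein-coding genes. The rule uses names only and no measured value. Following the usual classification, 11 of the genes code for fibrillar chains, 6 for the type IV chains of basement membranes, and 27 for other types.

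The libraries are total RNA sequencing libraries from the midbrains of 2 embryos of the B6NCrl mouse strain at embryonic day 14.5, called embryo 2 and embryo 1 after their replicate numbers. Per the labels, each came from a single pup, the pups were taken on different days, and the sex field reads pooled, which cannot describe 1 animal. RNA above 200 nt was purified with mirVana, 10 ng went into each library by a protocol named for SmartSeq, and ERCC spike-in RNAs were added. There is 1 group and no treatment, mutation or control, so the comparison is between the 2 embryos, and no test between groups was possible.

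Fibrillar collagens (types I, II, III, V and XI, with the minor types XXIV and XXVII) assemble into the fibres of connective tissue, cartilage and the meninges that wrap the brain. Type IV collagen forms a sheet-like network in basement membranes, which in the brain lie under the pial surface and around blood vessels. The remaining types coat fibrils, link matrix to cells, or span the plasma membrane of cells that include neurons.

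The gene and spike-in rows held 30.2 × 10⁶ expected counts in embryo 2 and 32.7 × 10⁶ in embryo 1, and spike-ins took 3.32% of them in embryo 2 and 3.15% in embryo 1. Midbrain markers were present in both libraries, with Otx2 at 76.3 TPM in embryo 2 and 99.9 TPM in embryo 1, and En1 at 14.3 TPM in embryo 2 and 13.5 TPM in embryo 1. Hoxa2 and Hoxb2 of the hindbrain were at or below 0.17 TPM in both embryos, while Emx2, which is best known from the forebrain, was at 14.6 TPM in embryo 2 and 15.5 TPM in embryo 1. TPM is the authors' level of a transcript corrected for its length and for library depth, and it is the scale used here whenever levels of different genes are set side by side. Each ratio of embryo 2 over embryo 1 rests on the authors' expected counts after TMM scaling and comes with a 95% interval that covers counting error only.

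Collagen transcripts were scarcer in embryo 2. The TPM of all 44 genes summed to 159.45 in embryo 2 and to 634.69 in embryo 1, which is 3.98-fold lower in embryo 2. In both embryos, 22 of the 44 genes stood at 1 TPM or more, beside 59.5% of all protein-coding genes. In embryo 2 alone 22 genes reached that level and in embryo 1 alone 28 did, so 6 genes passed it in embryo 1 only, 0 in embryo 2 only and 16 in neither. No collagen gene had 0 counts in either library. For this and for the split between the embryos, no share over all genes is given here, so both are descriptions only.

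At least 100 counts over both embryos, the minimum used for ratios, were reached by 30 of the 44 genes. Of these 30, 16 were at least 2-fold lower in embryo 2, where 3.35% of all 14011 genes with that many counts were. None of the 30 was at least 2-fold higher in embryo 2, where 1.43% of all genes were. In any degree, 25 of the 30 were lower in embryo 2 and 5 were higher. The median log2 ratio of embryo 2 over embryo 1 was -1.24 over the 30 collagen genes and 0.0056 over all 14011 genes. With 1 library per embryo there is no replicate of either embryo, so a difference between the embryos has no replicate check.

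**Figure D1:**
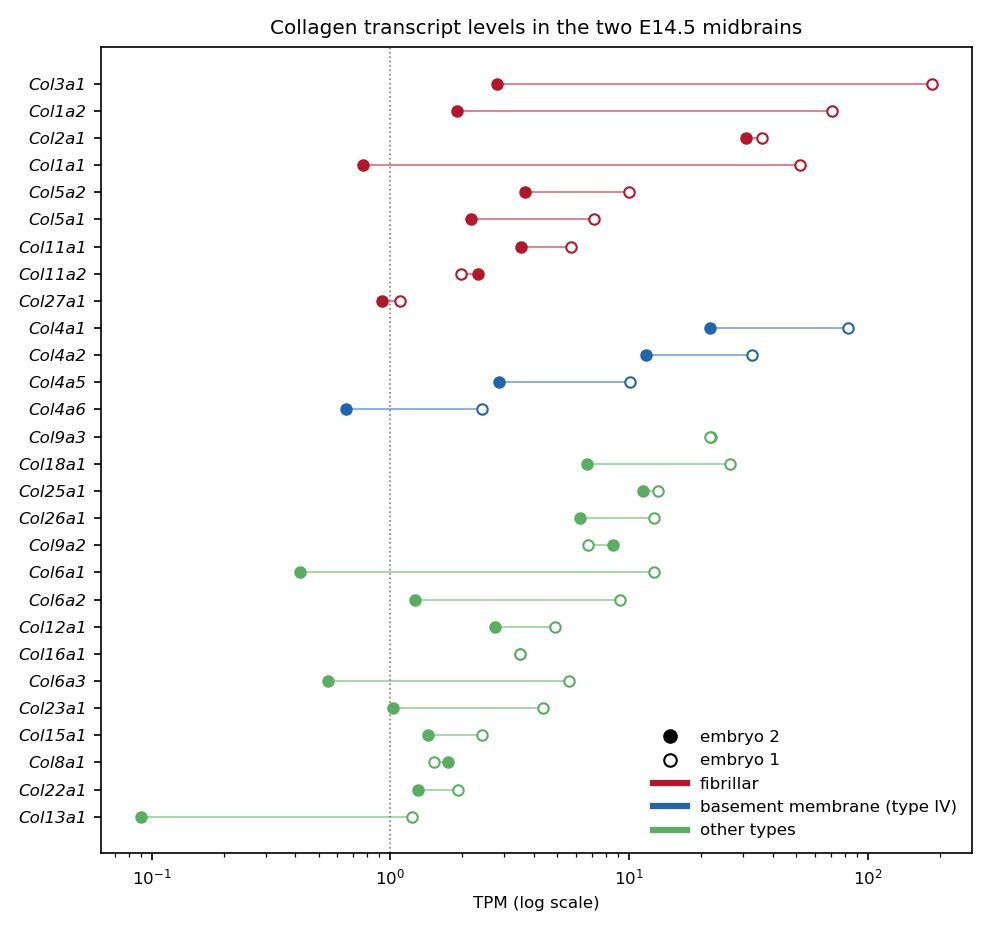
Level of each collagen gene with at least 1 TPM in either embryo, on a log axis of TPM, with embryo 2 as filled and embryo 1 as open circles joined by a line. Col3a1, Col1a1 and Col1a2 span the widest gaps (2.81 against 187 TPM for Col3a1), whereas Col2a1, Col9a3, Col16a1 and Col25a1 nearly coincide.

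The fibrillar genes held both the largest differences and several of the smallest. As a class they summed to 49.67 TPM in embryo 2 and 372.56 TPM in embryo 1, 7.50-fold lower in embryo 2. Of the 11 genes, 10 had at least 100 counts and 5 of these were at least 2-fold lower in embryo 2. The class median log2 ratio of -0.95 describes few of its members, whose log2 ratios ran between -6.55 and 0.67. The counting intervals of the middle genes Col5a2 and Col11a1 averaged -1.12 to -0.78, which is not an interval of the class median.

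Types I and III held the largest differences. Col3a1 (chromosome 1, 45311538 to 45349706, plus strand, GRCm38), the chain of type III collagen of soft tissues and vessel walls, had 2.81 TPM (182 counts) in embryo 2 and 187 TPM (14035 counts) in embryo 1. It was the most abundant collagen transcript in embryo 1 and ranked 13th of 44 in embryo 2. The scaled counts were 69.6-fold lower in embryo 2 (95% interval 60.1 to 81.0).

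Col1a1 (chromosome 11, 94936224 to 94953042, plus strand) and Col1a2 (chromosome 6, 4504814 to 4541544, plus strand) code for the chains of type I collagen, the main fibre protein of skin, bone, tendon and meninges. Col1a1 had 0.77 TPM (55 counts) in embryo 2 and 52.0 TPM (5749 counts) in embryo 1, which is 94.3-fold lower in embryo 2 (95% interval 72.4 to 125). Col1a2 had 1.90 TPM (168 counts) in embryo 2 and 71.2 TPM (6980 counts) in embryo 1, which is 37.5-fold lower in embryo 2 (95% interval 32.2 to 44.0). These intervals do not overlap, so the 2 chains of type I differed in their fold by more than counting error. The TPM ratio of Col1a1 to Col1a2 was 0.405 in embryo 2 and 0.730 in embryo 1. In embryo 2, 0.29 of the 0.77 TPM of Col1a1 came from 1.48 counts assigned to the short retained-intron transcript Col1a1-203. The ratio for embryo 2 is therefore uncertain.

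The windows around the annotated starts of Col3a1 and Col1a2 are shown because these genes, with Col1a1, had the largest differences of the family. Both are 300 bases from the RefSeq promoter table (build GRCm38.p6, plus strand), with 250 bases before the start and 50 after it. They were searched on both strands for 3 common promoter motifs, and the matches are in capitals. The first motif, spelled TATAAA, is the usual binding sequence of the basal transcription machinery. The second, spelled CCAAT, is bound by the factor NF-Y. The third is the GC box, spelled GGGCGG, which is bound by Sp1. The Col1a2 window follows the RefSeq start, which lies inside the gene's GENCODE span given above. Col3a1 lies at chr1:45311288-45311587 and Col1a2 at chr6:4505368-4505667.
Col3a1: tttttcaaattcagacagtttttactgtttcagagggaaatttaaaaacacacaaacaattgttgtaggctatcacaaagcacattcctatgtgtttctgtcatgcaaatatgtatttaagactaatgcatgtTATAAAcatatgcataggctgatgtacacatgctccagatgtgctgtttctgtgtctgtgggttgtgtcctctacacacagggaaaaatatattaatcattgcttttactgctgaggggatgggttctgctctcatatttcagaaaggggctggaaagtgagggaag
Col1a2: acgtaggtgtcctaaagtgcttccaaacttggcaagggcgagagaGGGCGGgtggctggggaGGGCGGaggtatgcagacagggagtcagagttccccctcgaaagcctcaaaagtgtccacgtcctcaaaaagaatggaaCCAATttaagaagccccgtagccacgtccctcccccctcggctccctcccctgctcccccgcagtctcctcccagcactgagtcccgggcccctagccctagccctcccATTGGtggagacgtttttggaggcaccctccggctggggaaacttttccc

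The Col3a1 window held 1 TATAAA match, which starts 117 bases before the start site, and the Col1a2 window held 2 GC box matches, 1 CCAAT match 109 bases before the start and 1 match on the opposite strand (ATTGG) at the start. The table had 38 windows for 35 of the collagen genes. The TATAAA letters were in 5 of the 38 (13.2%, against 13.6% of all 32851 windows), CCAAT letters in 13 (34.2%, against 37.4%) and GC box letters in 23 (60.5%, against 35.7%). A match is a description of the letters and not evidence of a bound site.

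Col2a1 was nearly level between the embryos. It codes for type II collagen, the fibrillar collagen of cartilage, which is also made in neuroepithelium of the mouse embryo. Col2a1 (chromosome 15, 97975602 to 98004695, minus strand) had 30.8 TPM (2406 counts) in embryo 2 and 36.1 TPM (3062 counts) in embryo 1. The scaled counts were 1.15-fold lower in embryo 2 (95% interval 1.09 to 1.21). That made Col2a1 the most abundant collagen transcript of embryo 2 and the 5th most abundant of embryo 1.

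The type XI partners of type II lay within 2-fold between the embryos but differed in opposite directions. Col11a1 and Col11a2 code for chains of type XI collagen, which forms the core of type II fibrils. Col11a1 had 3.53 TPM (393 counts) in embryo 2 and 5.73 TPM (662 counts) in embryo 1, 1.52-fold lower in embryo 2 (95% interval 1.34 to 1.73). Col11a2 had 2.33 TPM (183 counts) in embryo 2 and 1.98 TPM (160 counts) in embryo 1, a ratio of 1.27 (95% interval 1.02 to 1.58). Cartilage and bone markers were scarce: of 10 (Acan, Matn1, Matn3, Matn4, Comp, Chad, Runx2, Sp7, Ibsp and Ucma) 0 reached 1 TPM in both embryos, their sum was 1.86 TPM in embryo 2 and 1.56 TPM in embryo 1, and Matn1 was at 0 in both. The highest of them were Ucma at 1.14 TPM in embryo 2 and 0.57 TPM in embryo 1, and Runx2 at 0.34 TPM in embryo 2 and 0.45 TPM in embryo 1, followed by Chad at 0.13 TPM in embryo 2 and 0.07 TPM in embryo 1.

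Type II collagen is spliced into a form with exon 2 (IIA), which codes for a cysteine-rich domain of the amino-terminal propeptide and is typical of early and non-cartilage tissue, and a form without it (IIB), typical of mature cartilage. The transcripts Col2a1-201 and Col2a1-202 have different annotated 5′ ends, at 98004695 and 98004657. Exon 2 of Col2a1-201 is shown because it is the internal exon that Col2a1-202 lacks. It is 204 bases long (68 codons), on the minus strand of GRCm38 at chr15:98000403-98000606, copied from the GENCODE M21 transcript sequence and printed 5′ to 3′ with no capitals.
Col2a1 exon 2: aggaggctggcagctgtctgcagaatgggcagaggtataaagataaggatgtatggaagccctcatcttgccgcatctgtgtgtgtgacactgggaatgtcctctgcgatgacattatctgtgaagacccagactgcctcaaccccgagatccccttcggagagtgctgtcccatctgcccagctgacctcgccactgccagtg

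Col2a1-201, the transcript with this exon (54 exons), had 18.91 TPM in embryo 2 and 20.32 TPM in embryo 1. Col2a1-202, the transcript without it (53 exons), had 5.88 TPM in embryo 2 and 11.76 TPM in embryo 1. The form with exon 2 thus took 76.3% of the pair in embryo 2 and 63.3% in embryo 1, and was the larger in both. A short retained-intron transcript, Col2a1-209, was put at 4.56 TPM in embryo 2 and 3.46 TPM in embryo 1. Transcript values are the authors' division of shared reads among transcripts, and they carry an estimation error that the tables give no replicate for.

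Type V chains lay between these extremes. Type V collagen starts the fibrils of type I and sets their width. Col5a1 had 2.17 TPM (345 counts) in embryo 2 and 7.13 TPM (1084 counts) in embryo 1, 2.84-fold lower in embryo 2 (95% interval 2.51 to 3.21). Col5a2 had 3.67 TPM (452 counts) in embryo 2 and 9.97 TPM (1226 counts) in embryo 1, 2.45-fold lower in embryo 2 (95% interval 2.20 to 2.73). The third chain went the other way: Col5a3 had 0.52 TPM (59 counts) in embryo 2 and 0.36 TPM (41 counts) in embryo 1, a ratio of 1.59 (95% interval 1.05 to 2.44). Col5a2 lies 24.6 kb from Col3a1 on chromosome 1, and the log2 ratios of these neighbours were -1.29 for Col5a2 and -6.12 for Col3a1.

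The minor fibrillar genes were low in both embryos. Col27a1, a fibrillar chain of developing cartilage, had 0.92 TPM in embryo 2 and 1.10 TPM in embryo 1, 1.03-fold lower in embryo 2 (95% interval 0.762 to 1.39). Col24a1 had 0.24 TPM (20 counts) in embryo 2 and 0.29 TPM (31 counts) in embryo 1 and was under the count minimum.

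**Figure D2:**
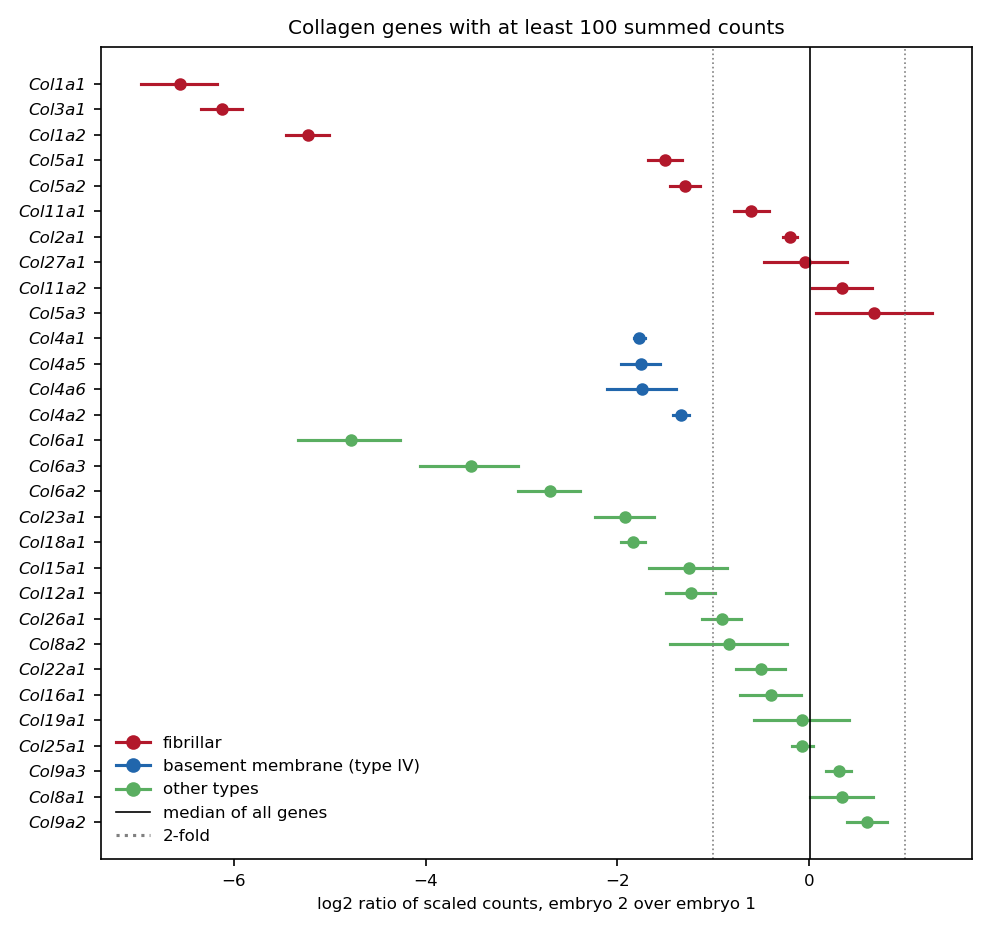
Log2 ratio of scaled counts, embryo 2 over embryo 1, for the 30 collagen genes with at least 100 counts, with bars for the 95% counting interval, dotted lines at a 2-fold difference in each direction and a solid line at the median of all genes. Col1a1, Col3a1, Col1a2 and the 3 type VI genes lie farthest to the left, the 4 type IV genes lie together between -1.77 and -1.34, and no point lies beyond the 2-fold line on the right.

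The type IV genes lay close together. The 6 genes summed to 37.27 TPM in embryo 2 and 128.23 TPM in embryo 1, and all 4 with at least 100 counts were at least 2-fold lower in embryo 2. Their log2 ratios ran from -1.77 to -1.34 with a median of -1.75. The counting intervals of the middle genes Col4a5 and Col4a6 averaged -2.04 to -1.47, which is not an interval of the class median. Col4a1 and Col4a2 make the trimer found in nearly all basement membranes. Col4a1 (chromosome 8, 11198423 to 11312826, minus strand) had 21.9 TPM (2734 counts) in embryo 2 and 82.8 TPM (10333 counts) in embryo 1, 3.41-fold lower in embryo 2 (95% interval 3.27 to 3.56). Col4a2 (chromosome 8, 11312805 to 11449287, plus strand) had 11.7 TPM (1424 counts) in embryo 2 and 32.8 TPM (3984 counts) in embryo 1, 2.53-fold lower in embryo 2 (95% interval 2.38 to 2.68). The intervals of Col4a1 and Col4a2 do not overlap, so these chains differed in their fold by more than counting error.

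Col4a5 and Col4a6 lie head to head on the X chromosome and code for chains of more restricted basement membranes, such as those around smooth muscle. Col4a5 had 2.84 TPM (254 counts) in embryo 2 and 10.1 TPM (950 counts) in embryo 1, 3.38-fold lower in embryo 2 (95% interval 2.94 to 3.89). Col4a6 had 0.65 TPM (82 counts) in embryo 2 and 2.42 TPM (304 counts) in embryo 1, 3.35-fold lower in embryo 2 (95% interval 2.61 to 4.32). The TPM ratio of Col4a5 to Col4a6 was 4.37 in embryo 2 and 4.17 in embryo 1, whereas that of Col4a1 to Col4a2 was 1.87 in embryo 2 and 2.53 in embryo 1. Col4a3 and Col4a4, whose chains are best known from the kidney glomerulus, had 10.08 and 6 counts in embryo 2 and 15 and 11 counts in embryo 1, which is too few for a ratio.

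The type IV genes are arranged in head-to-head pairs, and the start region that Col4a1 and Col4a2 share is shown for that reason. The start sites annotated by RefSeq and GENCODE coincide, at 11312826 for Col4a1 and 11312805 for Col4a2, so the first exons overlap by 22 bases. The Col4a2 window of the RefSeq promoter table (chr8:11312555-11312854, plus strand, GRCm38.p6) is printed with those 22 shared bases in capitals. Read on the opposite strand, the bases before the capitals lie downstream of the Col4a1 start.
Col4a2: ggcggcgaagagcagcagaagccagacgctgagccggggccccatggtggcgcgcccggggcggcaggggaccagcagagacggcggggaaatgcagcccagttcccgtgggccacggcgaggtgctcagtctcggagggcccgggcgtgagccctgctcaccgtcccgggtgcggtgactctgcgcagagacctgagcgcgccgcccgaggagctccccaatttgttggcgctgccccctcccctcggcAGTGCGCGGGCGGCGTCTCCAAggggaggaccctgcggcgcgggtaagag

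The Col4a1 and Col4a2 windows shared 78 bases, and both windows held CCAAT and GC box letters. The annotated genes of the other type IV pairs are separated by 71 bases (Col4a4 and Col4a3) and 1308 bases (Col4a6 and Col4a5). Whether the libraries kept strand is not stated in the labels, so reads from the 22 shared bases cannot be assigned to a gene by strand.

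Type VI genes, the chains of beaded microfilaments in connective tissue, came next to types I and III in the size of their difference, among genes with at least 100 counts. Col6a1 had 0.42 TPM (32 counts) in embryo 2 and 12.7 TPM (971 counts) in embryo 1, 27.4-fold lower in embryo 2 (95% interval 19.3 to 40.3). Col6a2 had 1.27 TPM (94 counts) in embryo 2 and 9.15 TPM (680 counts) in embryo 1, 6.53-fold lower in embryo 2 (95% interval 5.26 to 8.19). Col6a3 had 0.55 TPM (36 counts) in embryo 2 and 5.63 TPM (460 counts) in embryo 1, 11.5-fold lower in embryo 2 (95% interval 8.21 to 16.7).

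The chains of type VI that assemble together did not keep 1 ratio between the embryos. Col6a1 over Col6a2 was 0.331 in embryo 2 and 1.39 in embryo 1 on the TPM scale, although the genes lie 85.2 kb apart on chromosome 10. Col6a4, Col6a5 and Col6a6, the later-described chains of this type, had 26, 14 and 10 counts in embryo 2 and 17, 12 and 13 counts in embryo 1, under the minimum for a ratio.

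Fibril-associated collagens sit on the surface of larger fibrils, and as a class they were nearly equal in the embryos, at a summed 39.84 TPM in embryo 2 and 41.27 TPM in embryo 1. Of 9 genes, 6 had at least 100 counts and 1 of these was at least 2-fold lower in embryo 2. Type IX collagen, which coats type II fibrils, dominated the sum. Col9a3 (chromosome 2, 180597790 to 180622189, plus strand) had 22.1 TPM (964 counts) in embryo 2 and 21.8 TPM (864 counts) in embryo 1, a ratio of 1.24 (95% interval 1.13 to 1.36). Col9a2 had 8.54 TPM (459 counts) in embryo 2 and 6.70 TPM (335 counts) in embryo 1, a ratio of 1.52 (95% interval 1.32 to 1.75).

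The type IX chains were unequal in level. The remaining chain, Col9a1, had 0.39 TPM (23 counts) in embryo 2 and 0.69 TPM (39 counts) in embryo 1. Its TPM was 0.0457 of that of Col9a2 in embryo 2 and 0.103 in embryo 1, although the 3 chains form 1 trimer in cartilage. Col9a3-201, the main coding transcript, took 76.2% of the transcript TPM of Col9a3 in embryo 2 and 67.1% in embryo 1, and retained-intron transcripts held much of the rest (Col9a3-205 at 2.72 TPM in embryo 2 and 1.39 TPM in embryo 1, Col9a3-206 at 1.39 TPM in embryo 2 and 3.80 TPM in embryo 1). The 3′ end of Col9a3 overlaps Tcfl5 on the opposite strand, and Tcfl5 had 16.24 counts in embryo 2 and 13.32 in embryo 1.

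Among the genes of this class with at least 100 counts, Col12a1, which binds type I fibrils, was the exception. It had 2.74 TPM (172 counts) in embryo 2 and 4.90 TPM (449 counts) in embryo 1, and its scaled counts were 2.36-fold lower in embryo 2 (95% interval 1.97 to 2.83). On the deposited TPM scale the ratio of embryo 2 over embryo 1 was 0.559, within 2-fold. Coding transcripts took 38.0% of the Col12a1 TPM in embryo 2 (1.04 TPM) and 63.7% in embryo 1 (3.12 TPM). Col16a1 showed how the scales can part: its TPM was 3.48 in embryo 2 and 3.50 in embryo 1, but its counts were 142 in embryo 2 and 208 in embryo 1, 1.32-fold lower in embryo 2 after scaling (95% interval 1.06 to 1.65). Coding transcripts took 36.2% of the Col16a1 TPM in embryo 2 and 53.7% in embryo 1.

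Col22a1, known from the junction of muscle and tendon, had 1.31 TPM (204 counts) in embryo 2 and 1.92 TPM (321 counts) in embryo 1, 1.42-fold lower in embryo 2 (95% interval 1.19 to 1.70). Col19a1, which neurons of the mouse visual system use in synapse formation, had 0.78 TPM (66 counts) in embryo 2 and 0.93 TPM (77 counts) in embryo 1, 1.05-fold lower in embryo 2 (95% interval 0.748 to 1.49). Both lay within 2-fold, and the interval of Col19a1 spans a ratio of 1. Col14a1 and Col20a1 had 20 and 6 counts in embryo 2 and 63 and 9 counts in embryo 1. Both were under the count minimum, and Col14a1 was 2.84-fold lower in embryo 2 (95% interval 1.7 to 5.0).

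Among the transmembrane collagens, the neuronal Col25a1 was nearly level. This chain is made by neurons and is needed in mice for motor axons to enter muscle. Col25a1 (chromosome 3, 130131501 to 130599877, plus strand) had 11.5 TPM (1187 counts) in embryo 2 and 13.3 TPM (1381 counts) in embryo 1, 1.05-fold lower in embryo 2 (95% interval 0.971 to 1.14). Among its transcripts, Col25a1-202 took 62.1% of the transcript TPM in embryo 2 and 62.5% in embryo 1, and Col25a1-204, annotated for nonsense-mediated decay, took 24.8% in embryo 2 and 28.6% in embryo 1. The retained-intron transcript Col25a1-203 took 7.22% in embryo 2 and 2.41% in embryo 1.

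The other transmembrane genes were lower in embryo 2 or scarce. Col23a1 had 1.03 TPM (110 counts) in embryo 2 and 4.35 TPM (463 counts) in embryo 1, 3.80-fold lower in embryo 2 (95% interval 3.08 to 4.72). Col13a1, known from the neuromuscular junction, had 0.09 TPM (3 counts) in embryo 2 and 1.23 TPM (60 counts) in embryo 1. It was under the count minimum, and its ratio, 18.1-fold lower in embryo 2, had a wide interval of 5.89 to 90.0. Col17a1, the collagen of hemidesmosomes in skin, had 6 counts in embryo 2 and 16 in embryo 1.

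The multiplexins Col18a1 and Col15a1, which carry sugar chains and sit in basement membranes, were both at least 2-fold lower in embryo 2 by scaled counts. Col18a1 (chromosome 10, 77052178 to 77166548, minus strand), the source of the fragment endostatin, had 6.67 TPM (633 counts) in embryo 2 and 26.4 TPM (2510 counts) in embryo 1, 3.58-fold lower in embryo 2 (95% interval 3.28 to 3.91). Col15a1 had 1.44 TPM (71 counts) in embryo 2 and 2.42 TPM (188 counts) in embryo 1, 2.39-fold lower in embryo 2 (95% interval 1.81 to 3.19). On the deposited TPM scale the Col15a1 ratio was 0.595, within 2-fold.

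Col18a1 has an upstream start for its short form and a downstream start for longer forms. Col18a1-202, which begins at the upstream start, took 99.1% of the transcript TPM in embryo 2 and 96.0% in embryo 1, so both embryos used mainly that annotated form. The 3′ end of Col18a1 overlaps Slc19a1 on the opposite strand, which had 864 counts in embryo 2 and 1101 in embryo 1.

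The remaining genes were few. Col26a1, a secreted collagen-domain protein, had 6.25 TPM (297 counts) in embryo 2 and 12.8 TPM (618 counts) in embryo 1, 1.88-fold lower in embryo 2 (95% interval 1.63 to 2.16), just inside 2-fold, while its deposited TPM ratio of 0.489 lay just beyond it. Col26a1-202 and Col26a1-201 took 60.8% and 29.9% of its transcript TPM in embryo 2, and 55.5% and 36.5% in embryo 1. Of the short-chain network genes, Col8a1, a type VIII chain of vessel walls and cornea, had 1.75 TPM (168 counts) in embryo 2 and 1.53 TPM (147 counts) in embryo 1, a ratio of 1.27 (95% interval 1.01 to 1.59).

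Its partner Col8a2 had 0.44 TPM (36 counts) in embryo 2 and 0.88 TPM (71 counts) in embryo 1, 1.78-fold lower in embryo 2 (95% interval 1.18 to 2.74), so these chains differed between the embryos in opposite directions. Col10a1, the chain of hypertrophic cartilage, had 7 counts in embryo 2 and 12 in embryo 1. Col7a1, the anchoring fibril of skin, had 27 counts in embryo 2 and 38 in embryo 1, and Col28a1 had 22 counts in embryo 2 and 31 in embryo 1. Col10a1 lies within Nt5dc1 on the opposite strand (34 counts in embryo 2 and 72 in embryo 1), and Col20a1 overlaps another annotated transcript on the same strand, so these low counts are uncertain in origin.

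**Figure D3:**
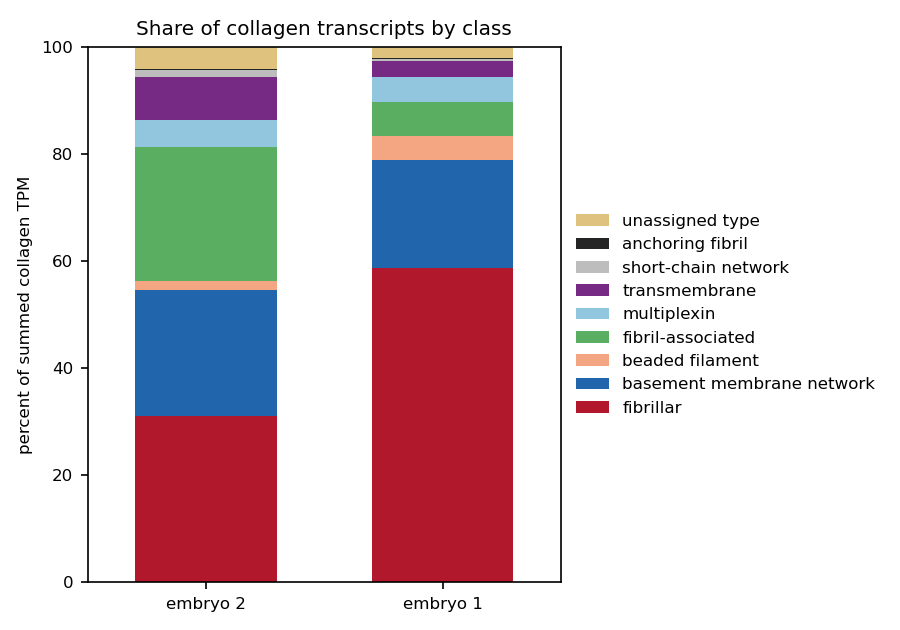
Share of the summed collagen TPM taken by each of 9 collagen classes in embryo 2 (left) and embryo 1 (right), as stacked bars from 0 to 100 percent. Fibrillar genes take 31.2% in embryo 2 and 58.7% in embryo 1, and fibril-associated genes take 25.0% in embryo 2 and 6.50% in embryo 1.

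The makeup of the collagen transcripts therefore differed as well as their amount. Fibrillar genes took 31.2% of collagen TPM in embryo 2 and 58.7% in embryo 1 (mean 44.9% ± 19.5, SD, n = 2). The basement membrane genes took 23.4% in embryo 2 and 20.2% in embryo 1 (mean 21.8% ± 2.24, SD, n = 2), a far smaller gap, although their summed TPM was 3.44-fold lower in embryo 2. The other types took 45.5% in embryo 2 and 21.1% in embryo 1.

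Sorted by collagen type, a grouping made after the values were seen, the contrast was sharper. The 3 genes of types I and III took 3.44% of collagen TPM in embryo 2 (5.48 TPM) and 48.8% in embryo 1 (309.9 TPM). The 6 genes of types II, IX and XI took 42.4% in embryo 2 (67.67 TPM) and 11.5% in embryo 1 (73.01 TPM), and their log2 ratios ran from -0.60 to 0.60. Summed over its chains, type I was 51.5-fold lower in embryo 2 (95% interval 45.1 to 59.1), type VI 9.17-fold (7.96 to 10.6), type IV 3.12-fold (3.02 to 3.23) and type V 2.48-fold (2.29 to 2.68).

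**Figure D4:**
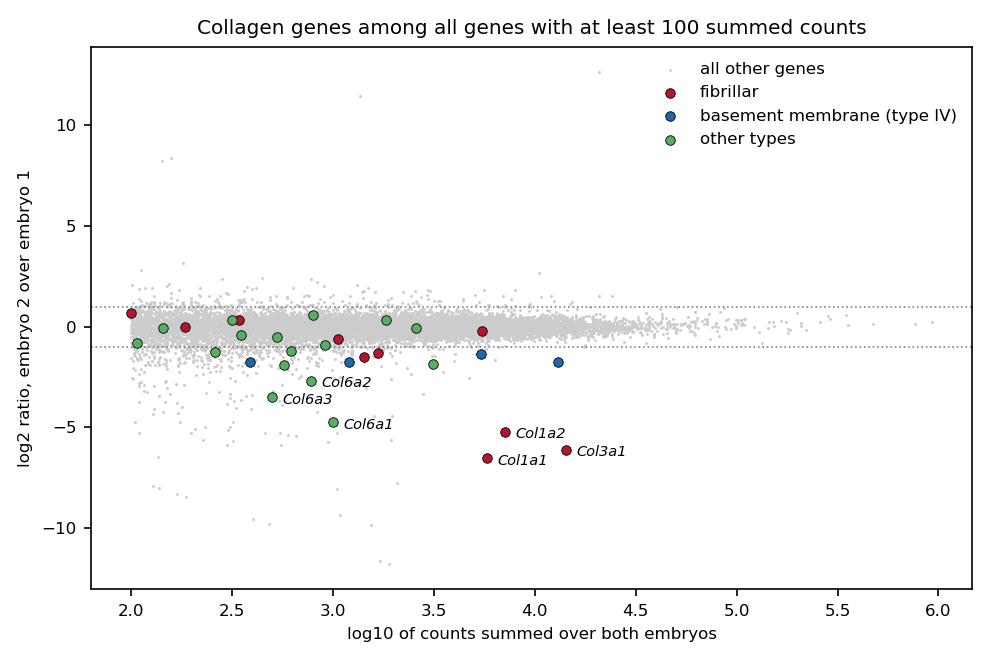
Log2 ratio of embryo 2 over embryo 1 against the log10 of counts summed over both embryos, for all 14011 genes with at least 100 counts (grey) and for the collagen genes (coloured by fibrillar, basement membrane and other types), with dotted lines at a 2-fold difference. Col3a1, Col1a1 and Col1a2 lie far below the bulk of genes at high summed counts, and 16 of 30 collagen genes lie below the lower dotted line.

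Genes that serve collagen were followed through 7 lists, whose counts are to be read beside those over all 14011 genes with at least 100 counts, of which 3.35% were at least 2-fold lower in embryo 2 and 6926 were lower in any degree. These lists were chosen with earlier results of these data known. Inside the cell, prolines and lysines of the chain are hydroxylated, chaperones fold the triple helix, and large carriers export it. Of 15 genes for hydroxylation and related steps, 14 had at least 100 counts, 1 (Crtap) was at least 2-fold lower in embryo 2 (3.35% of all genes) and 0 were 2-fold higher (1.43% of all genes), with a median log2 ratio of -0.05. With 14 genes, these counts are near the shares over all genes. The prolyl isomerase Ppib had 241.5 TPM in embryo 2 and 258.8 TPM in embryo 1, the prolyl hydroxylase subunit P4hb 195.8 TPM in embryo 2 and 246.5 TPM in embryo 1, and the galactosyltransferase Colgalt1 46.6 TPM in embryo 2 and 41.5 TPM in embryo 1. Crtap, a partner of prolyl 3-hydroxylase, had 8.33 TPM in embryo 2 and 19.2 TPM in embryo 1, and the lysyl hydroxylases Plod1 and Plod2 were 1.47-fold and 1.55-fold lower in embryo 2. The levels of this machinery were far closer between the embryos than those of Col1a1 or Col3a1, the collagen genes with the largest differences. Some collagen genes were nearly level too, such as Col2a1 (1.15-fold lower in embryo 2) and Col25a1 (1.05-fold lower).

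All 10 chaperone and export genes were lower in embryo 2 in some degree (6926 of 14011 genes in all), with 2 (Fkbp10 and Creb3l1) at least 2-fold lower and a median log2 ratio of -0.61. Serpinh1, the collagen chaperone HSP47, had 44.7 TPM in embryo 2 and 67.4 TPM in embryo 1, and the carriers Sec23a and Mia3 were 1.24-fold and 1.06-fold lower in embryo 2. Fkbp10, a prolyl isomerase, was 2.08-fold lower, Rcn3 1.98-fold and Creb3l1, a transcription factor that acts on Col1a1 in mouse bone, 2.67-fold lower. Of 13 genes that trim propeptides or cross-link fibrils, 11 had at least 100 counts and 2 were at least 2-fold lower, with a median log2 ratio of -0.19. The propeptidase Bmp1 had 18.2 TPM in embryo 2 and 22.0 TPM in embryo 1, while its enhancer Pcolce was 3.11-fold lower in embryo 2, the cross-linking enzyme Lox 10.2-fold lower and Loxl1 1.92-fold lower.

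Genes of proteins that bind fibrils had the lowest median of the 7 lists. Of 14, 9 had at least 100 counts and 7 of these were at least 2-fold lower in embryo 2, with a median log2 ratio of -1.65. The proteoglycan genes Dcn, Lum and Fmod had 1.00, 0.08 and 0.22 TPM in embryo 2 and 55.5, 27.6 and 5.17 TPM in embryo 1. Sparc, a collagen-binding glycoprotein, had 195.7 TPM in embryo 2 and 350.1 TPM in embryo 1, and Fbln1 had 13.0 TPM in embryo 2 and 29.7 TPM in embryo 1.

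Among 16 basement membrane partners, 15 had at least 100 counts and 8 were at least 2-fold lower in embryo 2, with a median log2 ratio of -1.00. The proteoglycan Agrn had 95.7 TPM in embryo 2 and 114.2 TPM in embryo 1, the type IV cross-linking enzyme Pxdn 27.3 TPM in embryo 2 and 41.6 TPM in embryo 1, and the linker Nid1 17.1 TPM in embryo 2 and 33.0 TPM in embryo 1. Lama2 was 9.44-fold lower in embryo 2, Lamc3 5.48-fold and Nid2 4.81-fold. Of 12 receptor and uptake genes, 11 had at least 100 counts, all 11 were lower in some degree and 5 at least 2-fold, with a median of -0.80. The leading ones were Adgrg1, a receptor for type III collagen in the mouse cortex (65.1 TPM in embryo 2 and 100.9 TPM in embryo 1), Itgb1 (38.3 TPM in embryo 2 and 73.2 TPM in embryo 1) and Ddr1 (40.8 TPM in embryo 2 and 68.6 TPM in embryo 1), and the farthest apart were Itga11, Ddr2 and Mrc2 at 6.57-fold, 4.13-fold and 2.37-fold lower in embryo 2.

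Of 9 collagen-degrading enzymes and their inhibitors, 5 had at least 100 counts and 1, the gelatinase Mmp2, was at least 2-fold lower (6.28 TPM in embryo 2 and 15.8 TPM in embryo 1), with a median of -0.68. Timp2, an inhibitor, had 55.8 TPM in embryo 2 and 65.9 TPM in embryo 1, and the membrane enzyme Mmp14 had 25.8 TPM in embryo 2 and 45.9 TPM in embryo 1. Mmp9 had 23.8 TPM in embryo 2 and 24.1 TPM in embryo 1, Timp3 was 1.60-fold lower in embryo 2, and Mmp8 and Mmp1a were at 0 TPM in both embryos. Of the genes with at least 100 counts in these 7 lists, 0 were at least 2-fold higher in embryo 2, beside 1.43% of all genes with that many counts.

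**Figure D5:**
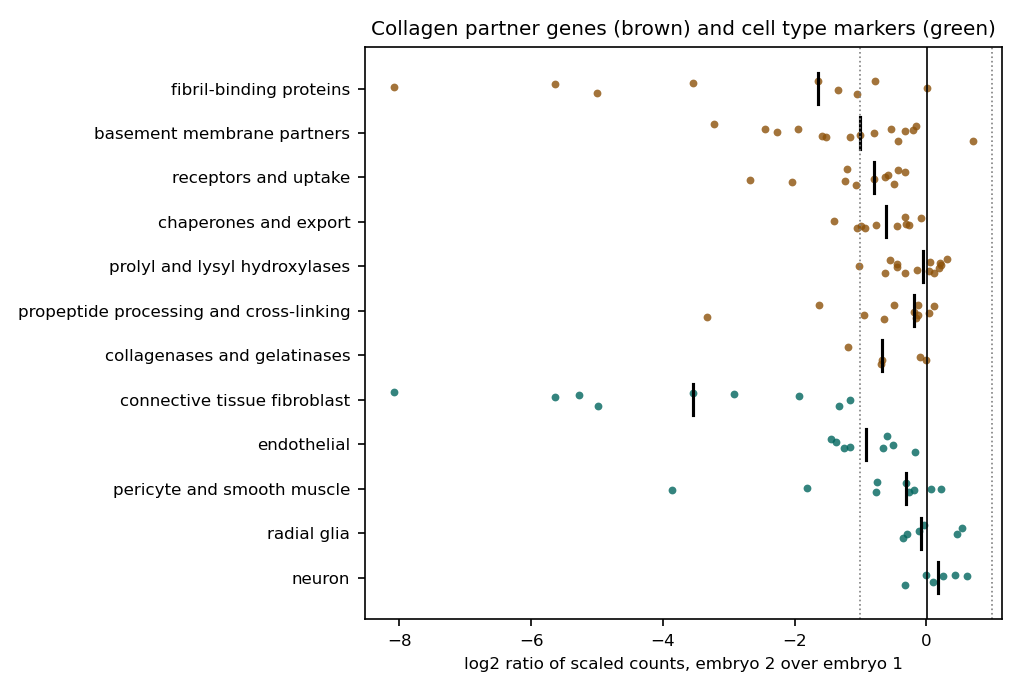
Log2 ratio of embryo 2 over embryo 1 for each gene with at least 100 counts in the 7 collagen partner lists (brown) and in 5 cell type marker lists (green), with a black bar at each list's median, dotted lines at 2-fold and a solid line at the median of all genes. Fibroblast markers (median -3.53) and fibril-binding proteins (-1.65) lie lowest, and radial glia (-0.08) and neuron markers (0.18) lie near 0. The lists that lie lowest share Dcn, Lum and Ogn.

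Marker lists of non-neural cell types differed in how far they lay from the median of all genes, of which 3.35% were at least 2-fold lower. All 10 connective tissue fibroblast markers summed to 8.43 TPM in embryo 2 and 131.36 TPM in embryo 1, and the 9 with at least 100 counts were each at least 2-fold lower in embryo 2 (median log2 ratio -3.53). The remaining marker, Twist1, had 75 summed counts and was 1.60-fold lower (95% interval 0.98 to 2.67). The marker lists were chosen with earlier results of these data known, so these counts are a description only. The highest fibroblast markers were Dcn and Lum, which are also in the fibril-binding list, and Islr at 1.47 TPM in embryo 2 and 12.9 TPM in embryo 1. Ogn is in both lists too (0.47 TPM in embryo 2 and 6.16 TPM in embryo 1), so these lists are not separate observations. No fibroblast marker was at 0 in both embryos. The 8 endothelial markers summed to 105.79 TPM in embryo 2 and 172.08 TPM in embryo 1, with 4 at least 2-fold lower (median -0.91), and the highest, Cldn5, had 56.9 TPM in embryo 2 and 70.8 TPM in embryo 1, followed by Esam (19.4 TPM in embryo 2 and 34.5 TPM in embryo 1) and Kdr (7.18 TPM in embryo 2 and 21.6 TPM in embryo 1). The 9 pericyte and smooth muscle markers summed to 46.11 TPM in embryo 2 and 70.38 TPM in embryo 1, with 2 at least 2-fold lower (median -0.31), and the highest, Rgs5, Kcnj8 and Pdgfrb, were 1.14-fold, 1.20-fold and 1.70-fold lower. The 2 that passed 2-fold were Acta2 (0.53 TPM in embryo 2 and 8.75 TPM in embryo 1) and Anpep (3.54-fold lower). Notch3 was higher in embryo 2 at a ratio of 1.16, and Cspg4 had a ratio of 1.05 by scaled counts but 2.11 TPM in embryo 2 and 2.23 TPM in embryo 1.

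The marker lists of the neural tissue itself had medians near that of all genes (log2 ratio -0.08 for radial glia and 0.18 for neurons). Radial glia markers summed to 2065 TPM in embryo 2 and 1960 TPM in embryo 1, led by Fabp7, Vim and Slc1a3, and neuron markers to 3539 TPM in embryo 2 and 3378 TPM in embryo 1, led by Tubb3, Stmn2 and Map2. Log2 ratios ran from -0.35 to 0.54 for the radial glia markers and from -0.32 to 0.61 for the neuron markers. None of these 12 genes was 2-fold apart, beside 3.35% of all genes at least 2-fold lower in embryo 2 and 1.43% at least 2-fold higher. With 12 genes, this count is near the shares over all genes. Choroid plexus markers summed to 6.04 TPM in embryo 2 and 103.89 TPM in embryo 1, and Ttr had 0.37 TPM in embryo 2 and 96.3 TPM in embryo 1. Of the remaining choroid plexus markers, Folr1 had 5.22 TPM in embryo 2 and 6.24 TPM in embryo 1, Kl 0.42 TPM in embryo 2 and 0.61 TPM in embryo 1, and Clic6 0.03 TPM in embryo 2 and 0.73 TPM in embryo 1. Skeletal muscle markers (5.06 TPM in embryo 2 and 5.02 TPM in embryo 1, mostly Acta1, with Des and Ttn at or below 1.05 TPM) and epidermis markers (0.22 TPM in embryo 2 and 0.30 TPM in embryo 1, from Trp63, Krt15 and Krt14, with Krt5 at 0 in both) were low. The part of any of these cell types in the collagen differences was not tested, and in bulk tissue fewer cells of a type and less RNA per cell cannot be told apart.

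Some of the transcript estimates behind the levels rest on few reads. Col3a1-201, the full-length transcript, took 56.9% of the Col3a1 transcript TPM in embryo 2 and 68.2% in embryo 1, and the short Col3a1-205 (737 nt) took most of the rest, at 1.21 TPM (14.73 counts) in embryo 2 and 53.8 TPM (658 counts) in embryo 1. By counts, Col3a1-201 held 91.9% in embryo 2 and 94.9% in embryo 1. For Col1a1 in embryo 2, 37.7% of the transcript TPM was assigned to the retained-intron transcript Col1a1-203 from 1.48 counts, against 0 in embryo 1, and the main coding transcript Col1a1-201 took 62.3% in embryo 2 and 99.0% in embryo 1. Col4a5-202 and the shorter Col4a5-204 took 41.8% and 58.2% in embryo 2, and 49.7% and 50.3% in embryo 1.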

How the data were processed

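Both libraries were analysed from the gene and transcript tables that the authors deposited. The text record beside each deposited table names mm10 and GENCODE M4, and no source used here names the quantifier. Expected counts, per the file headers, are the authors' estimates of reads for each gene and transcript and need not be whole. Of the 44 collagen genes, 41 had whole counts in both libraries (within 0.005), and Col4a3, Col5a1 and Col9a3 did not. TPM, likewise taken as deposited by the authors, is on a scale set over all rows, spike-ins included. Names, biotypes and positions were looked up in GENCODE M21 (also on GRCm38), which matched 42462 of 43346 Ensembl rows. The 96 ERCC rows, the phiX row and 26248 rows with a numeric identifier (14 counts in embryo 2 and 6 in embryo 1) stayed out of library sizes and ratios.

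Expected counts were rounded for the TMM factors of edgeR 4.0.16 (R 4.3.3), which came to 0.990 in embryo 2 and 1.01 in embryo 1. Ratios used the unrounded counts with a prior of 0.5 for log2 values, at least 100 summed counts and a fixed 2-fold rule. Intervals are exact conditional binomial 95% intervals (scipy 1.17.1) and do not cover variation between animals or PCR copies, as no molecular identifiers are given. The calculation was checked on simulated data. The replicates came from separate embryos, per the labels. With 1 group there was no test, and no p-value is given.

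The members, classes, partner lists and marker lists were chosen with earlier results of these data known, and the midbrain, forebrain and hindbrain markers were added after the data were seen. Genes named are all members (values for those with 100 summed counts or 1 TPM in either embryo, counts for the rest), the 3 highest and 3 farthest from a ratio of 1 in each partner list, the 3 highest in each marker list, and leading transcripts where a member averaged 5 TPM and several transcripts reached 10% of it. Other transcripts and the regional markers were named after their values were seen. The alternatives were DESeq2 1.42.0 size factors, spike-in totals, deposited TPM, posterior mean counts and TPM, other count and TPM minimums, and a prior of 2. Promoter windows came from RefSeq. A marker list of a further cell type and 1 regional marker are not reported here.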

Additional observations from a re-analysis of the deposited data

How the results depend on the processing

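Among the 30 collagen genes with at least 100 summed counts, no gene changed direction under any scaling, prior or value type tried, and none was at least 2-fold higher in embryo 2 under any of them. Of the genes with fewer counts, Col6a5 and Col20a1 turned direction on the deposited TPM scale, with count ratios of embryo 2 over embryo 1 of 1.29 and 0.739 and TPM ratios of 0.533 and 1.77, and Col6a4 had a TPM ratio of 2.00. The number at least 2-fold lower in embryo 2 was 16 as reported and between 15 and 19 under the alternatives. Col26a1 passed 2-fold with spike-in totals as the scale and with deposited TPM, and Col15a1 and Col12a1 no longer passed it with deposited TPM. The median of all genes was -0.11 on the log2 scale with spike-in totals and -0.13 with deposited TPM, against 0.0056 as reported. The fibrillar median log2 ratio of -0.95 became -0.60 with a minimum of 10 summed counts or none, since Col24a1 then enters. It became -1.29 with reads of protein-coding transcripts only, an alternative chosen after seeing the data, in which Col5a3 falls below the count minimum. The basement membrane share of 21.8% became 29.7% from expected counts, which are not length-corrected, and 24.4% from the TPM of protein-coding transcripts only, also chosen after seeing the data. With 1 embryo left out in turn, detected genes numbered 22 to 28, the fibrillar share was 31.2 to 58.7% and the basement membrane share 20.2 to 23.4%. Ratios have no value with an embryo left out. No paired analysis was possible because the labels give only 1 group. Depth leaves 14 genes under 100 summed counts, and for these no ratio was called.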
